A study of Homo sapiens with 96 samples.

Results

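Knockdown of the epidermal growth factor receptor (EGFR) by siRNA was examined in HaCaT-Mock cells. HaCaT is an immortalised, non-tumorigenic human keratinocyte line, and HaCaT-Mock is a puromycin-selected population of it that carries the empty lentiviral vector. The comparison was made of all HaCaT-Mock arrays whose labels name an siRNA and neither a drug nor PBS, which gave 6 of the 96 arrays of the series. Of these, 3 arrays received siRNA against EGFR (siEGFR) and 3 a scramble siRNA, and each side had 2 arrays in batch J and 1 array in batch M. Both sides carried the empty vector and were transfected with a lipid reagent. A single commercial siRNA against EGFR was used, so changes that follow from loss of EGFR and changes from other targets of that siRNA cannot be told apart. Silencing was assayed on the first and on the second day after transfection, and the sources tie the knockdown in HaCaT-Mock to the first without stating the time for the arrays themselves. Nothing stated that the arrays of a group came from separate cultures, so p-values measure the spread between arrays, which may be technical. For comparison, use was made of 3 HaCaT-Mock arrays with PBS alone, 9 HaCaT-Mock arrays with an EGFR inhibitor alone (3 each with 10 nM afatinib, 100 nM gefitinib or 100 nM cetuximab), and 18 siEGFR and scramble arrays of lines that overexpress EGFR (HaCaT-EGFR), HRASVal12D (HaCaT-HRAS) or PIK3CA-HR (HaCaT-PIK3CA). Afatinib and gefitinib are kinase inhibitors of EGFR, and cetuximab is an antibody against its extracellular domain. All levels below are log2 intensities from Affymetrix U133 Plus 2.0 arrays, and a change is the siEGFR level minus the scramble level, so that a change of 1 is a 2-fold difference. Each change is given with its standard error (SE) from limma, for which the spread was pooled over 89 HaCaT arrays. Its p-value was adjusted over 19775 genes by the Benjamini-Hochberg method. A gene is said to rise or fall when that adjusted p was under 0.05.

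EGFR is the receptor for EGF, TGF-alpha, HB-EGF and related ligands, and it pairs with ERBB2, ERBB3 and ERBB4. Ligand binding starts the RAS-MAPK cascade, which induces transcription factors such as EGR1 and FOSL1 together with phosphatases that switch the cascade off again, and the PI3K-AKT branch, which holds FOXO factors out of the nucleus. In keratinocytes EGFR signalling sustains proliferation and migration and restrains terminal differentiation, so that its loss is known to raise differentiation and innate immune transcripts.

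The arrays were first compared with their labels. The 50 genes with the lowest scramble minus PBS value in batch J of the other 3 lines (HaCaT-Mock was not used to choose them) were averaged on each array. This average was between 8.36 and 8.75 on the 5 HaCaT-Mock arrays of batch J labelled with no siRNA, and it was 7.32, 7.16 and 6.91 on the 3 scramble arrays of the comparison. The 3 siEGFR arrays lay between these, at 7.99, 8.02 and 7.56 (the last of each in batch M). The 6 arrays of the comparison therefore followed their labels. However, 6 other arrays did not: 4 HaCaT-Mock arrays of batch E labelled with no siRNA (1 with PBS and 1 with each inhibitor) were at 7.23 to 7.54, beside scramble arrays of the other lines in that batch at 7.21 to 7.52, the HaCaT-Mock array labelled scramble plus PBS was at 8.70, and 1 afatinib array of HaCaT-PIK3CA was at 7.24. None of these is an siEGFR or scramble array of the comparison, but 4 of them enter the inhibitor response of HaCaT-Mock, which is given below with and without all 6. Apart from the 4 HaCaT-Mock arrays, batch E held only arrays labelled scramble. It therefore gave no other level for arrays labelled with no siRNA.

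Between siEGFR and scramble, 2138 of 19775 genes differed (10.8%), of which 1078 rose (5.45%) and 1060 fell (5.36%). A change of at least 1 was reached by 75 of the genes that rose (0.379% of all genes) and by 28 of those that fell (0.142%). All 3 siEGFR arrays were above or all were below the 3 scramble arrays for 1466 of the 2138 genes, compared with 15.9% of all genes. Since the 2138 were chosen by their difference on these same arrays, that gap was largely fixed in advance. The median change over all genes was -0.02. Computed within each batch, the change had the same sign in batch J and in batch M for 2130 of the 2138 genes, compared with 62.3% of all genes, a difference that the choice of the 2138 on the same arrays largely fixed. At the median SE of 0.111, the 95% interval of a change was 0.223 to either side, so smaller differences were mostly not resolved. In a fit of the 6 arrays alone the count was 1339, and with the replicate number as a block in place of the batch it was 904. When the HaCaT-Mock array labelled scramble plus PBS, which went against its label, was joined to the scramble group, the count was 1148, and its effect on several of the lists is given beside them. By its 50-gene average of 8.70 that array lay with arrays labelled with no siRNA. Calls lost on joining it therefore cannot tell an unstable change from an unlike control array. With it joined, the keratin genes KRT4 and KRT13, which the inhibitors raised, changed by -0.50 and -0.60. Whether that array had received an inhibitor was not tested.

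EGFR itself was the gene with the lowest adjusted p. Its level was 8.72, 8.90 and 7.98 on the siEGFR arrays and 10.95, 10.78 and 10.20 on the scramble arrays. The groups did not overlap in either batch, and the 2 PBS arrays of batch J lay with the scramble arrays at 10.96 and 11.01. The change was -2.11 (SE 0.0957, n = 3 against 3, adjusted p = 6.59e-24 in limma), which is a 76.8% lower transcript level (75.9% in batch J and 78.4% in batch M). That SE and p rest on the spread of all 89 arrays in the fit. In limma on the 6 arrays alone the adjusted p was 0.000591, and with the replicate number as a block it was 0.00421. The remaining EGFR probe sets did not all move alike. The other bright ones changed by -1.96 and -2.03, 2 of intermediate brightness changed by -1.02 and -1.04, and the 4 dimmest by -0.32 to -0.01. Because bulk RNA was hybridised, fewer cells of a type and less RNA per cell cannot be told apart here.

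Among the ERBB receptors, ERBB3, a kinase-impaired partner that recruits PI3K, rose. It was at 8.47, 8.70 and 8.47 with siEGFR, against 8.01, 7.93 and 7.82 with scramble and 8.11 and 8.10 with PBS, so all siEGFR arrays lay above both kinds of control. The change was 0.63 (SE 0.0766, adjusted p = 1.23e-08). A second ERBB3 probe set changed by 0.57, and 3 dimmer ones by -0.30 to 0.20. ERBB2, the preferred partner of EGFR, changed by 0.18 (95% interval 0.00 to 0.37) and ERBB4, which was dim, by 0.14, and neither passed the test.

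Of the 8 ERBB ligands measured by a single-gene probe set, 2 fell (5.36% of all genes fell) and none rose. AREG, which encodes amphiregulin, and EPGN were listed but not measured in this way. HBEGF, which encodes the EGFR ligand HB-EGF, was at 6.55, 6.40 and 6.53 with siEGFR and at 7.68, 7.66 and 7.64 with scramble. This was the clearest separation among the ligands, with a change of -1.17 (SE 0.106, adjusted p = 1.84e-12). A second HBEGF probe set changed by -1.16, and 2 dim ones by 0.04 and 0.10. TGFA, which encodes the autocrine keratinocyte ligand TGF-alpha, fell by 0.51 (SE 0.122, adjusted p = 0.00229). EREG and NRG1, which encode epiregulin and neuregulin 1, changed by -0.10 and 0.25, EGF, BTC, NRG2 and NRG4 by -0.01 to 0.09, and none of these passed the test.

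**Figure D1:**
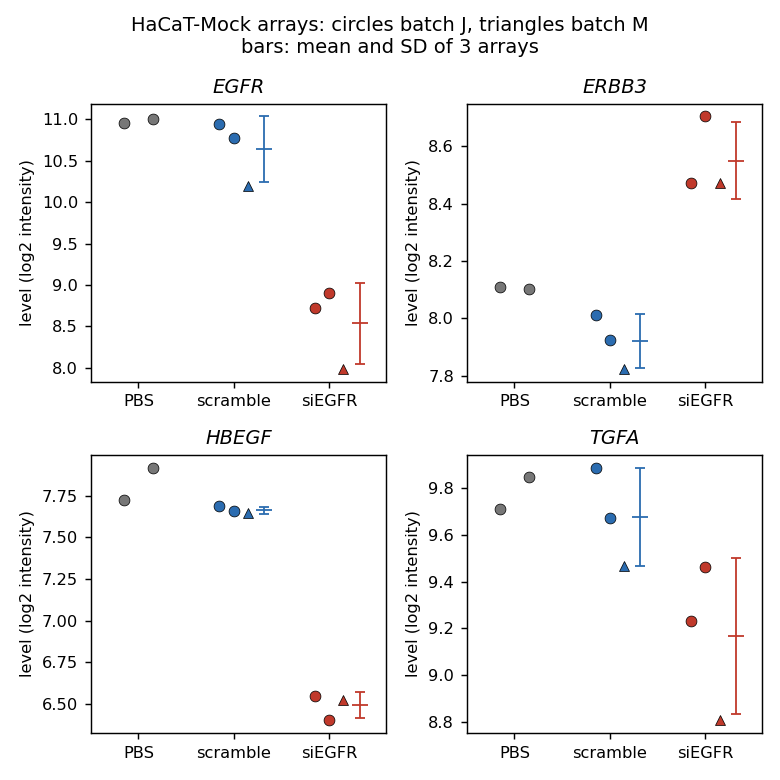
Levels of EGFR, ERBB3, HBEGF and TGFA (log2 intensity, vertical axes that do not start at 0) on the HaCaT-Mock arrays with PBS in batch J (2 arrays), scramble siRNA (3) and siEGFR (3). Points are arrays, with circles for batch J and triangles for batch M, and bars are the mean and SD of 3 arrays. EGFR, HBEGF and TGFA were lower on every siEGFR array than on every scramble array, and ERBB3 was higher.

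Many of the genes that the MAPK cascade induces were lower after knockdown. Of 19 MAPK-induced transcription factors and immediate early genes, 10 fell (5.36% of all genes fell) and 1 rose, with a median change of -0.35 (all genes -0.02). With the joined array 6 of these 11 calls were kept. FOSL1, an AP-1 subunit, was at 7.59, 7.59 and 8.22 with siEGFR against 8.88, 8.83 and 9.69 with scramble, and each batch showed the difference (change -1.33, SE 0.239, adjusted p = 4.14e-05). IER3, an early response gene of survival signalling, fell from 10.63, 10.66 and 10.84 to 9.55, 9.48 and 9.82 (change -1.10, SE 0.118, adjusted p = 4.52e-10). ELK3, an ETS factor that ERK phosphorylates, fell by 1.07 and MAFF, a small MAF factor, by 0.62. EGR1, the zinc finger factor that is a classical ERK target, was at 8.28, 8.43 and 8.09 with siEGFR against 9.19, 9.18 and 8.97 with scramble (change -0.84, SE 0.16, adjusted p = 0.000107). The PBS arrays had EGR1 at 10.48 and 10.32, above both transfected groups. ETV5, a PEA3 factor, FOS, FOSB, PHLDA1 and IER2 fell by 0.27 to 0.68, whereas ETV4, ETV1, EGR3, MYC and CCND1 changed by -0.35 to -0.21 without passing the test. FOSL2 was the member that rose, by 0.32 (adjusted p = 0.0228).

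Falls were also counted among the inhibitors of this cascade. Of 16 MAPK feedback inhibitors, 9 fell (5.36% of all genes fell) and none rose, and the median change was -0.43. With the joined array 1 of these 9 calls was kept, and the median was -0.19. The median of the list was 0.07 for scramble minus PBS and -0.14 for siEGFR minus PBS. DUSP5, a nuclear ERK phosphatase, was at 6.66, 6.61 and 6.62 with siEGFR and at 7.96, 7.84 and 8.10 with scramble (change -1.34, SE 0.128, adjusted p = 1.24e-11). DUSP6, the cytoplasmic ERK phosphatase, was at 8.82, 9.13 and 8.39 against 10.07, 9.94 and 9.82 (change -1.16, SE 0.211, adjusted p = 5.19e-05). The PBS arrays had DUSP6 at 10.18 and 10.16, beside the scramble arrays. DUSP4 and DUSP7, further MAP kinase phosphatases, fell by 0.57 and 0.64, the Sprouty genes SPRY1, SPRY2 and SPRY4 by 0.49 to 0.66, and SPRED2 and DUSP2 by 0.44 and 0.43. ERRFI1, which encodes the EGFR inhibitor MIG6, changed by 0.22 (SE 0.215, adjusted p = 0.642).

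**Figure D2:**
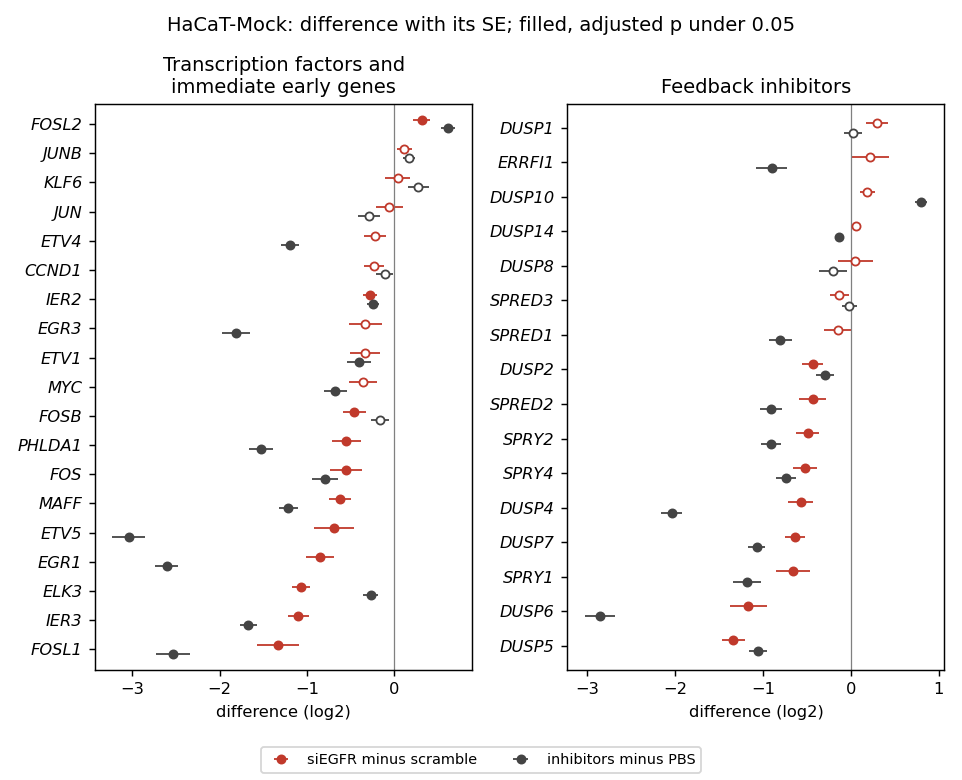
Change after siEGFR against scramble (red) and after the EGFR inhibitors against PBS (dark grey) in HaCaT-Mock for 19 MAPK-induced genes and 16 feedback inhibitors (horizontal axes, log2 difference). Bars are the SE of limma and filled points passed an adjusted p of 0.05. Most members lie left of 0 with either treatment, and the inhibitor points lie further left for ETV5, EGR1, DUSP6 and DUSP4.

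Among the signalling proteins downstream of EGFR, 4 of 23 measured adaptor, trafficking and kinase genes rose and none fell, when 5.45% of all genes rose and 5.36% fell, and the median change was 0.01. PIK3R1, the p85-alpha subunit of PI3K, was at 8.11, 8.20 and 7.64 with siEGFR against 7.26, 7.12 and 6.56 with scramble (change 1.01, SE 0.125, adjusted p = 2.07e-08). CBL and CBLB, the ubiquitin ligases that send EGFR to degradation, rose by 0.55 and 0.42, and SOS1, the exchange factor that activates RAS, by 0.44. Relative to PBS, the siEGFR arrays were not higher for these 4 genes: siEGFR minus PBS was between -0.04 and 0.18, none past the test, whereas scramble minus PBS was between -0.82 and -0.43. Of 18 FOXO target genes, which PI3K-AKT activity represses, 2 rose and 1 fell, with a median of 0.07. BCL6, a transcriptional repressor, rose by 0.65 (adjusted p = 1.21e-07) and YPEL5 by 0.38, and the pseudokinase gene TRIB2 fell by 0.62. Of 18 other receptor tyrosine kinases, FGFR3 rose by 0.44 and RYK, a WNT receptor, fell by 0.47. Sets of targets of the factor AP-2alpha had been chosen by their response to EGFR inhibitors on other arrays of the series. Of 4 named as falling, VEGFA, TGFA and TGFBR3 fell (by 0.77, 0.51 and 0.92), and of 5 named as rising, EGFR itself was the member that passed the test, and it fell. None of the 5 AP-2 genes passed the test (-0.23 to 0.13).

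Among genes of at least median level over all HaCaT arrays, the largest rises were those of SCEL, CYP4F3, GRAMD1C, NEK7, EIF5A2, CCL2, MAP2, ID2, FRK and STON1, with changes of 2.03 down to 1.42. SCEL, which encodes the cornified envelope protein sciellin, was at 7.70, 7.44 and 7.03 with siEGFR against 5.85, 5.67 and 4.56 with scramble. NEK7, a kinase of mitosis and of the NLRP3 inflammasome, was at 10.08, 10.26 and 9.22 against 8.54, 8.23 and 7.74. ID2, an inhibitor of basic helix-loop-helix factors, was at 9.40, 9.16 and 8.80 against 7.86, 7.70 and 7.26. In each of these genes the siEGFR and scramble arrays did not overlap. A larger rise, of 2.25, was that of ABCA13, a lipid transporter, but its scramble arrays were at 3.55 to 3.78, among the dimmest values of the deposited table.

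Among the same genes of at least median level, the largest falls beside EGFR were those of C6orf120, ANTXR2, FAM20C, LIMA1, DUSP5, FOSL1, NETO2, HAS3 and DCBLD2, with changes of -1.46 to -1.29. A larger fall, of 1.55, was that of LINC00973, a long non-coding RNA below that level. LIMA1, which encodes an actin-bundling protein also known as EPLIN, was at 9.37, 9.36 and 9.25 with siEGFR, against 10.71, 10.65 and 10.69 with scramble and 10.68 and 10.62 with PBS. The spread within each group was thus a small part of its change of -1.36 (SE 0.0868, adjusted p = 1.80e-17). ANTXR2, a collagen-binding receptor also used by anthrax toxin, was at 6.68, 6.32 and 6.46 against 7.98, 8.03 and 7.63. HAS3 encodes a hyaluronan synthase and FAM20C the kinase of secreted proteins, and they fell by 1.30 and 1.37.

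The 2 PBS arrays of batch J showed which side of the comparison stood apart. The scramble and siEGFR arrays are each set against the same PBS arrays here, and they are the arrays on which the genes were chosen, so the values are a description. Of the 75 genes that rose by at least 1, scramble was lower than PBS for 60 and higher for none, when 5.96% of all genes were lower and 3.65% higher (limma without the 6 arrays that went against their labels). Their median scramble minus PBS was -0.92 and their median siEGFR minus PBS was 0.32. With siEGFR, 32 of the 75 were above PBS and 2 below, when 2.43% of all genes were above and 4.58% below. The 28 falls differed from this: with siEGFR all 28 were below PBS, with a median of -0.93, and with scramble 12 were above PBS and none below. EIF5A2, a translation factor, was at 7.73 and 7.69 with PBS and at 7.51 and 7.72 on the siEGFR arrays of the same batch, while the scramble arrays of that batch were at 5.78 and 5.99. CDH1, which encodes E-cadherin, likewise had PBS arrays at 11.40 and 11.41 beside siEGFR arrays at 11.40, 11.23 and 11.13, and scramble arrays at 10.31, 10.12 and 9.97. The part that the scramble siRNA has in such rises was not tested.

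**Figure D3:**
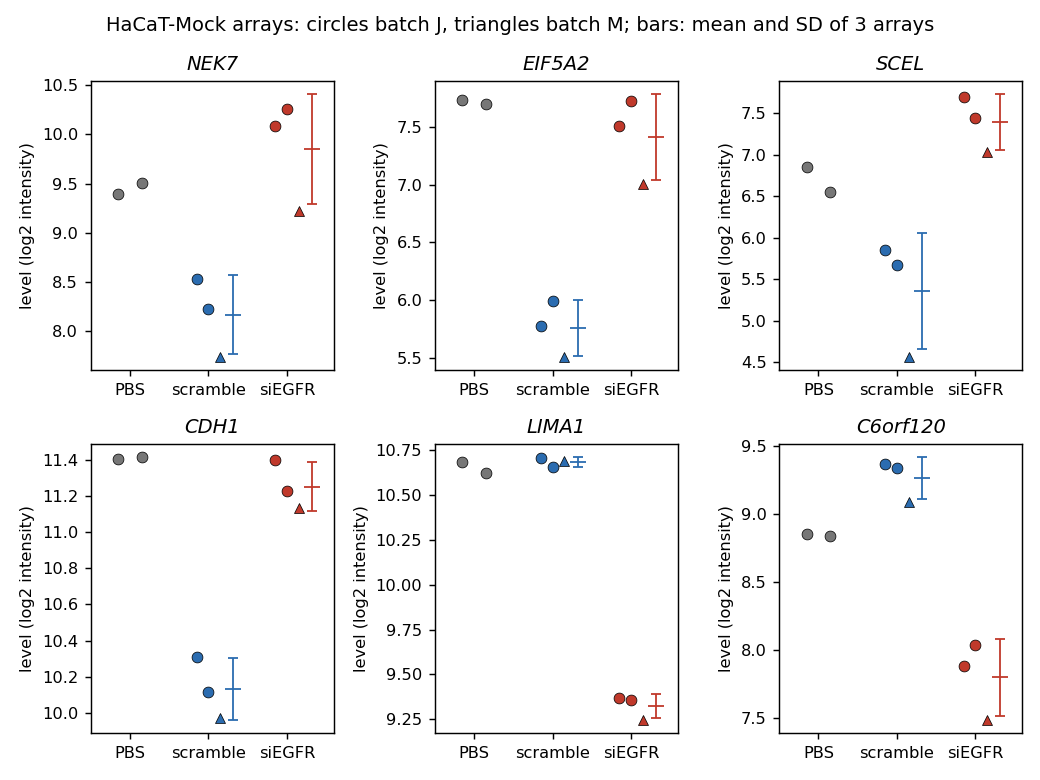
Levels of NEK7, EIF5A2, SCEL, CDH1, LIMA1 and C6orf120 (log2 intensity, vertical axes that do not start at 0) on HaCaT-Mock arrays with PBS in batch J, scramble siRNA and siEGFR. Circles are batch J, triangles batch M, and bars the mean and SD of 3 arrays. The scramble arrays of EIF5A2 and CDH1 lie below both PBS and siEGFR, with the batch M siEGFR array of EIF5A2 in between, and the siEGFR arrays of LIMA1 and C6orf120 lie below both controls.

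Of 18 measured adhesion and junction genes, 8 rose (5.45% of all genes rose), 10 did not pass the test and none fell, with a median change of 0.24. Joining the scramble plus PBS array kept 1 of the 8 calls, with a median of 0.11. CDH1 rose by 1.12 (SE 0.235, adjusted p = 0.000452), the desmosomal cadherins DSC3 and DSG3 by 0.86 and 0.63, the desmosomal plaque genes PKP1 and PKP2 by 0.53 and 0.54, and the tight junction genes CLDN1 and TJP1 by 0.53 and 0.35. N-cadherin (CDH2), which is better known from mesenchymal cells, rose by 0.35. DSG3, PKP2, CLDN1 and CDH2 each lost the call when siEGFR array 1 or 2, or scramble array 2 or 3, was left out. With probe sets chosen by the study's rule, PKP2 and CDH2 changed by 0.15 and 0.05 and did not pass the test. The siEGFR and scramble arrays did not overlap for 3 of the 18 genes, compared with 15.9% of all genes. The median of the list was -0.27 for scramble minus PBS and -0.01 for siEGFR minus PBS. Of the integrin genes listed with the basal keratinocyte genes, a pair fell. ITGA3, the integrin alpha-3 subunit that binds laminin, was at 6.45, 6.45 and 7.17 with siEGFR against 7.49, 7.42 and 7.90 with scramble (change -0.92, SE 0.104, adjusted p = 1.90e-09), and ITGB1, the beta-1 subunit, fell by 0.33. Of the 11 basal keratinocyte genes to which these belong, 2 rose, DST, a hemidesmosome linker, by 0.58 and the caveolin CAV1 by 0.19, and 2 fell. KRT5 and KRT14, the basal keratins, changed by 0.30 and 0.28 without passing the test.

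Of 16 cornified envelope genes 3 rose (5.45% of all genes rose), namely SCEL, involucrin (IVL) by 0.78 (adjusted p = 0.00135) and filaggrin (FLG) by 0.42 (adjusted p = 0.048), and of 18 suprabasal and mucosal genes 2 rose, the factor GRHL3 by 0.61 and the desmocollin DSC1, which was dim (3.19 to 3.76), by 0.35. IVL was at 7.27, 7.28 and 7.11 with siEGFR, against 6.52, 6.45 and 6.35 with scramble and 6.47 and 6.53 with PBS, so that its siEGFR arrays lay above both controls. None of the members of these lists fell. With the joined array none of these 5 calls was kept, and with single arrays left out FLG lost its call for 5 of the 6 arrays and DSC1 for 4. KRT1, a suprabasal keratin, changed by -0.16, and KRT4 and KRT13, those of mucosa, by 0.36 and 0.27, and none passed the test. None of the 8 measured wound and hyperproliferation genes passed the test either, and KRT6A, KRT6B, KRT17 and DEFB4A of that list were not measured. Of 15 matrix protease and plasminogen system genes, 3 fell (5.36% of all genes fell) and none rose. PLAU, the urokinase plasminogen activator, was at 8.34, 8.42 and 8.65 with siEGFR against 9.38, 9.22 and 9.39 with scramble (change -0.86, SE 0.095, adjusted p = 9.27e-10). Its receptor PLAUR fell by 0.49 and the protease inhibitor SERPINE2 by 0.94. Of 10 mesenchymal genes, SPARC, a matrix glycoprotein, rose by 0.64.

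Cell cycle genes did not move as a block. Of 22 G1 and S phase genes 6 rose and 3 fell (median 0.07), and of 19 mitosis genes 3 rose and none fell (median 0.06). Over all genes 5.45% rose and 5.36% fell. CCNE1, the cyclin E1 that drives S phase entry, was at 6.17, 5.96 and 6.48 with siEGFR against 6.71, 6.95 and 6.82 with scramble (change -0.62, SE 0.0944, adjusted p = 1.82e-06), and CCNE2 and CCND2 fell by 0.52 and 0.34. In contrast CDK6, a cyclin D kinase, was at 10.32, 10.58 and 10.31 against 9.79, 9.71 and 9.61 (change 0.70, SE 0.111, adjusted p = 4.68e-06). The replication genes TYMS, MCM6 and MCM3 rose by 0.45, 0.39 and 0.25, PCNA, the sliding clamp of DNA polymerase, by 0.27, and the factor E2F2 by 0.33. The mitosis genes that rose were the kinesin KIF11 by 0.69, the spindle checkpoint kinase TTK by 0.32 and the spindle protein NUSAP1 by 0.22. The proliferation markers MKI67 and TOP2A changed by -0.14 and 0.07 and did not pass the test. Of 12 CDK inhibitor and p53 target genes 1 rose, RRM2B, by 0.45. Of 14 apoptosis regulators, the death ligand gene TNFSF10 (TRAIL) rose, from 6.17, 6.08 and 5.77 to 7.40, 7.18 and 6.87 (change 1.14, SE 0.215, adjusted p = 9.10e-05). Both of its death receptors, TNFRSF10A and TNFRSF10B, fell by 0.70, and no BCL2 family member passed the test.

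Of 23 measured interferon response genes, 8 rose (5.45% of all genes rose), 15 did not pass the test and none fell, with a median change of 0.41. The median of the list was -0.12 for scramble minus PBS and 0.14 for siEGFR minus PBS. Of the 8 calls 2 were kept with the joined array, the median was 0.10, and the changes of TRIM22, IRF9 and IFIT1 were 0.32, 0.36 and 0.22. TRIM22, an antiviral ubiquitin ligase, was at 7.06, 6.87 and 6.80 with siEGFR against 5.94, 6.10 and 5.63 with scramble (change 1.02, SE 0.279, adjusted p = 0.0091). IRF9, the DNA-binding subunit of the factor that type I interferon activates, rose by 0.70 (adjusted p = 0.00416), and IFI44, IFIT1, RSAD2, OASL, ISG15 and HERC5 by 0.41 to 0.66. Of 12 RNA sensors and interferons, the double-stranded RNA receptor TLR3 rose by 0.63 (adjusted p = 0.0362), and none of the interferon genes of the list passed the test. Of 11 antigen presentation genes HLA-E rose by 0.29, while TAP2, a subunit of the peptide transporter, was at 7.56, 7.65 and 7.26 with siEGFR against 8.32, 8.28 and 8.02 with scramble and 8.30 and 8.35 with PBS. TAP2 thus fell by 0.72 (SE 0.0772, adjusted p = 3.90e-10) while its partner TAP1 changed by 0.06. Of 20 cytokine genes 3 rose and 2 fell (5.36% of all genes fell). The monocyte chemokine CCL2 rose by 1.64 (SE 0.44, adjusted p = 0.00755), and the falls were those of IL1A, from 8.78, 8.60 and 8.28 to 7.75, 7.86 and 7.08, and IL1B, from 9.54, 9.61 and 9.72 to 8.72, 8.74 and 8.79. IL1RN, which encodes the antagonist of both, rose by 0.59, and IL6 by 0.39.

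Metabolic and growth factor lists were mixed, and their counts stand beside 5.45% of all genes that rose and 5.36% that fell. Of 13 sterol synthesis genes 4 rose, and none fell. INSIG1, the sterol-regulated retention factor of SREBP, rose by 1.01 (adjusted p = 1.50e-07), HMGCS1, SQLE and LSS by 0.63, 0.55 and 0.27. Of 9 fatty acid synthesis genes 1 fell (ACACA, by 0.26), and of 18 hypoxia and glycolysis genes 4 rose (ADM, NDRG1, BNIP3 and ALDOC) and 4 fell (VEGFA, HK2, SLC2A1 and PFKP). With the joined array HK2 and PFKP changed by -0.23 and -0.13 and did not pass the test. Of 17 TGF-beta and BMP genes 4 rose and 4 fell. The rises were those of ID1, ID2 and ID3 (by 0.73, 1.51 and 0.99), which are BMP targets, and SKIL, a repressor of SMAD proteins, by 0.38. The falls were those of the receptors TGFBR2 and TGFBR3 (by 0.42 and 0.92), of SMAD3, a transducer of TGF-beta, by 0.22 and of its target PMEPA1 by 0.33. Of 15 unfolded protein and ATF4 response genes HERPUD1 rose by 0.41, and the chaperone cofactors DNAJB9 and SDF2L1 fell by 0.50 and 0.32. Of 12 genes of the small RNA machinery AGO2, XPO5 and TNRC6A fell by 0.48, 0.26 and 0.51. Of 8 NF-kappaB feedback genes NFKB1, the p105 precursor subunit, fell by 0.19. Of 10 housekeeping genes TBP rose by 0.22, and ACTB changed by -0.08.

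Markers of the cell type were as labelled. The 10 keratinocyte markers measured had scramble levels of 8.46 to 13.13, and 3 of them, the junction genes CDH1, DSG3 and PKP1, rose. The 14 markers of fibroblasts, endothelium, leukocytes and melanocytes had scramble levels of 3.60 to 7.32 with a median of 4.73, their mean was 4.86 to 4.89 on the siEGFR arrays and 4.76 to 4.92 on the scramble arrays, and none passed the test.

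The inhibitor response of HaCaT-Mock was used to ask which changes also follow when the receptor is blocked rather than its transcript lowered. It shares no array with the knockdown comparison, and its control is PBS rather than scramble siRNA. The knockdown lowered the EGFR transcript by 76.8%, protein was not measured on these arrays, and the time of the siEGFR arrays is not stated. What these unlike settings add to the differences below was not tested. The mean of the 3 inhibitors raised 2859 genes (14.5%) and lowered 2809 (14.2%) relative to PBS. Of the 1078 genes that rose after siEGFR, 528 rose (49.0%, and 18.5% of those the inhibitors raised) and 102 fell with the inhibitors, and of the 1060 that fell, 613 fell (57.8%, and 21.8% of those the inhibitors lowered) and 96 rose. The difference of the responses passed the test for 2423 genes (12.3%), with the siEGFR response higher for 1168 (5.91%) and lower for 1255 (6.35%). Without the 6 arrays that went against their labels, 2832 genes differed.

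Receptor and MAPK genes showed both shared and unequal changes. EGFR rose by 0.29 as the mean of the inhibitors (SE 0.0788, adjusted p = 0.00277 in limma), opposite to the knockdown. Taken singly, afatinib raised it by 0.54 and gefitinib by 0.29. With cetuximab it changed by 0.05 and did not pass the test. ERBB3 rose by 0.61 with the inhibitors, and its difference between treatments was 0.01 (95% interval -0.18 to 0.21). The median of the MAPK-induced genes was -0.67 with the inhibitors against -0.35 with siEGFR, and that of the feedback inhibitors -0.85 against -0.43. These medians have unlike controls, PBS for the inhibitors and scramble siRNA for siEGFR. Set against PBS without the 6 arrays, the siEGFR medians were -0.64 and -0.14, and the scramble medians -0.16 and 0.07. EGR1 fell by 2.61 and ETV5 by 3.04 with the inhibitors, and the siEGFR responses were smaller by 1.76 (adjusted p = 7.50e-09) and 2.36 (adjusted p = 3.52e-08). For EGR1 the scramble arrays lay below the PBS arrays, as given above, so its difference also holds the gap between these controls. DUSP6 and DUSP4 were also lowered less by siEGFR, by 1.69 and 1.47. DUSP5 was not told apart between the treatments (difference -0.28, interval -0.61 to 0.05), and ELK3 was the member that siEGFR lowered more, by 0.80 (adjusted p = 6.73e-06). NRG1 and EREG, which siEGFR did not change past the test, fell by 1.20 and 1.33 with the inhibitors, and both differences passed the test.

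In differentiation, interferon and cell cycle genes the treatments differed as well. KRT4 and KRT13 rose by 3.52 and 2.45 with the inhibitors, and the siEGFR response was lower by 3.17 (adjusted p = 2.67e-08) and 2.18 (adjusted p = 7.39e-05). IVL rose by 2.30 with the inhibitors and less with siEGFR (difference -1.53, adjusted p = 1.72e-06), whereas the SCEL responses, 2.10 and 2.03, differed by -0.07 (interval -0.81 to 0.67). Of the 23 interferon response genes the inhibitors raised 17, with a median of 1.10, and the siEGFR response was lower for 13 and higher for 1. Of the 22 G1 and S phase genes the inhibitors lowered 15 and raised none, and the siEGFR response was higher for 10 and lower for 1. CDK6, TYMS and MCM6 rose with siEGFR and fell with the inhibitors, by 0.28, 0.24 and 0.18. Of the 18 FOXO targets the inhibitors raised 12, and the siEGFR response was lower for 8 and higher for none. The median of these targets was 0.93 with afatinib, 0.60 with gefitinib and 0.22 with cetuximab. PLAU, which siEGFR lowered, changed by 0.14 with the inhibitors (adjusted p of the difference 2.26e-08). Among genes of at least median level, the largest positive differences were those of EIF5A2, ETV5, NT5E, GPAT3, EGR1 and XDH, and the largest negative those of KRT4, TNFAIP2, EGFR, KRT13, MPPED2 and GBP2. Batch M held no PBS array of HaCaT-Mock. Without the 6 arrays the inhibitor medians were -0.64 for the MAPK-induced genes, -0.78 for the feedback inhibitors and 1.20 for the interferon genes, and each difference named here that passed the test kept its direction and passed it again. The siEGFR response was then lower for 15 and higher for 1 of the interferon genes, higher for 10 and lower for 2 of the G1 and S phase genes, and lower for 8 and higher for 2 of the FOXO targets.

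**Figure D4:**
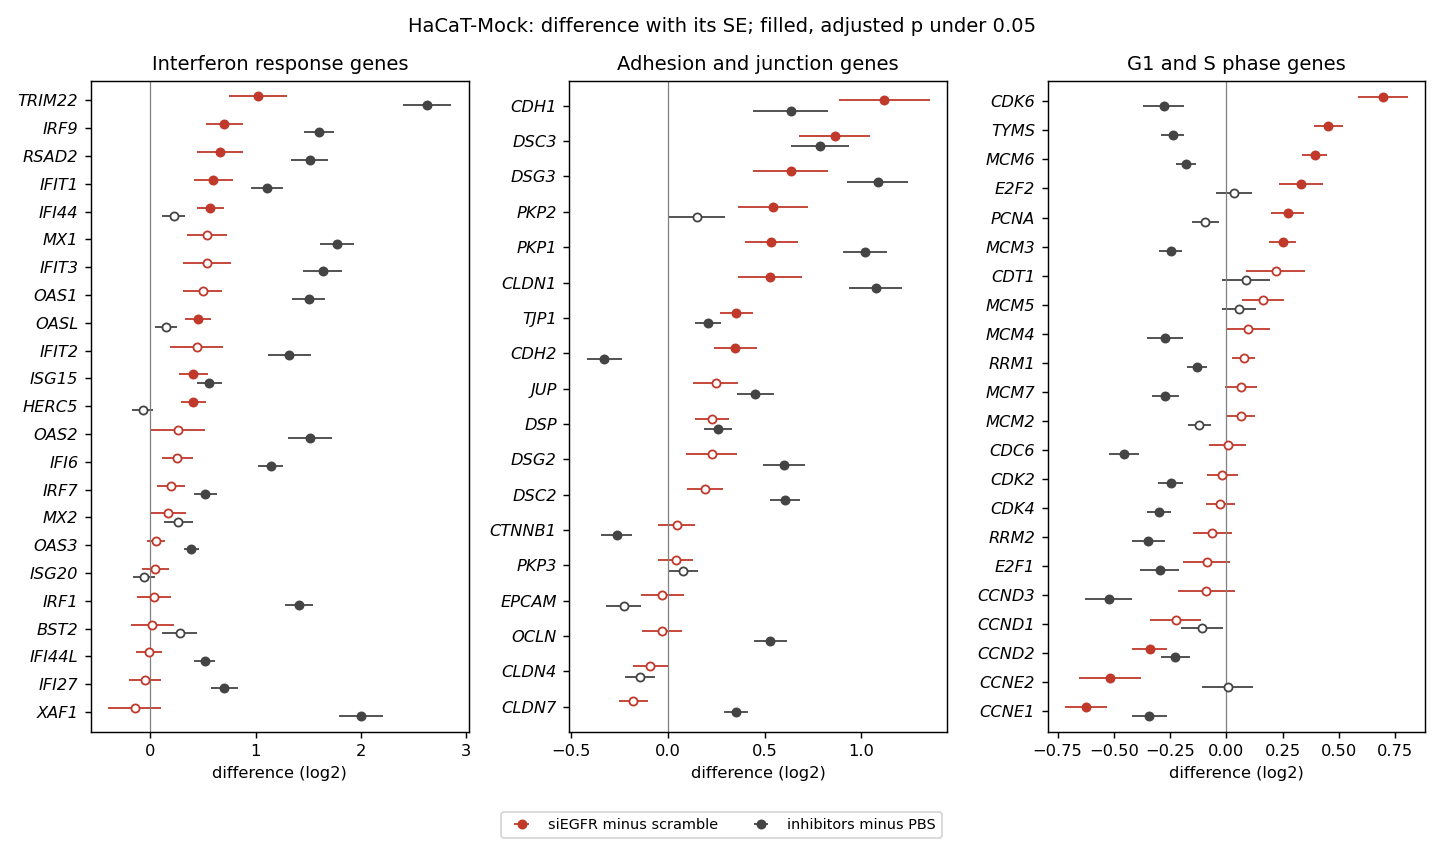
Change after siEGFR against scramble (red) and after the inhibitors against PBS (dark grey) in HaCaT-Mock for interferon response, adhesion and junction, and G1 and S phase genes (horizontal axes, log2 difference, each panel with its own scale). Bars are the SE of limma and filled points passed an adjusted p of 0.05. Inhibitor points lie right of siEGFR points for most interferon genes and left of them for most G1 and S phase genes.

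Of the 75 genes that rose by at least 1 with siEGFR, 44 rose, 2 fell and 29 did not pass the test with the inhibitors (45, 3 and 27 without the 6 arrays). For 30 genes there was no inhibitor rise and the difference between treatments passed the test, and 26 of these rose in all 4 lines, as did 56 of all 75. Their median scramble minus PBS was -1.07, siEGFR minus PBS 0.10 and inhibitors minus PBS 0.00, the last without the 6 arrays. The list contained NEK7, EIF5A2, ABCA13 and ELOVL4, a fatty acid elongase. Of the 28 falls of at least 1, 24 fell with the inhibitors too. The 4 that did not were EGFR, C6orf120, LIMA1 and CDC34, and for each the difference between treatments passed the test and the fall was also seen in all 4 lines, as it was for 20 of the 28. CDC34, a ubiquitin-conjugating enzyme of the cell cycle, fell by 1.19, while the inhibitors changed it by -0.17 (difference -1.02, adjusted p = 5.28e-09). LIMA1 changed by 0.10 with the inhibitors (difference -1.46, adjusted p = 3.08e-14) and C6orf120, a secreted protein of little known function, by -0.20 (difference -1.26, adjusted p = 1.41e-07), although without the 6 arrays C6orf120 fell by 0.26 with the inhibitors (adjusted p = 0.00245). Whether LIMA1, C6orf120 and CDC34 are targets of the siRNA itself was not tested, since its sequence was not used here.

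The other lines received the same siRNAs on arrays of their own, which were used to ask whether the response of HaCaT-Mock was particular to it. The genes that rose and fell were 940 (4.75%) and 931 (4.71%) in HaCaT-EGFR, 712 (3.6%) and 531 (2.69%) in HaCaT-HRAS, and 1191 (6.02%) and 1109 (5.61%) in HaCaT-PIK3CA. Of the 1078 rises of HaCaT-Mock, 671 were rises in HaCaT-EGFR (62.2%, and 71.4% of the rises there), 513 in HaCaT-HRAS (47.6% and 72.1%) and 844 in HaCaT-PIK3CA (78.3% and 70.9%). Of the 1060 falls, 663, 411 and 788 were falls in these lines. No gene that passed the test in HaCaT-Mock passed it in the opposite direction in another line, and 417 rises and 362 falls were seen in all 4.

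Tested directly, the response differed for 2 genes between HaCaT-Mock and HaCaT-EGFR (0.0101%), for 5 between HaCaT-Mock and HaCaT-HRAS (0.0253%), and for 0 between HaCaT-Mock and HaCaT-PIK3CA or the mean of the 3 lines (0%). At an unadjusted p under 0.05 these limma comparisons held 640, 945, 453 and 611 genes. Each gene's interval was wide, at a median of 0.315 to either side for a pair of lines. Without the 6 arrays that went against their labels, none of which is an siEGFR or scramble array, the counts were 3, 58 and 0 for HaCaT-EGFR, HaCaT-HRAS and HaCaT-PIK3CA, so the count against HaCaT-HRAS depended on whether they entered the fit. Of those 58 genes, 56 had the larger change in HaCaT-Mock. The median of the MAPK-induced genes was -0.35 in HaCaT-Mock, -0.36 with overexpressed EGFR, -0.40 with PIK3CA-HR and -0.12 with HRASVal12D, and that of the feedback inhibitors -0.43, -0.44, -0.41 and -0.17. In the same order 10, 7, 6 and 2 of the induced genes fell, and 9, 8, 8 and 2 of the feedback inhibitors. Of all genes 5.36%, 4.71%, 5.61% and 2.69% fell, in that order. These medians and counts were not tested against each other. IER3 was the member whose difference passed the test with all arrays (-1.10 against -0.28, adjusted p = 0.0379). Its HaCaT-HRAS arrays were at 10.60, 10.73 and 10.75 with siEGFR and at 10.86, 10.96 and 11.10 with scramble. DUSP6, DUSP5, DUSP4, DUSP10, SCEL, ID1, ID2, ID3, HBEGF and INSIG1 passed it without the 6 arrays. DUSP6 changed by -1.16 and -0.22 and ID1 by 0.73 and -0.17 in HaCaT-Mock and HaCaT-HRAS.

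**Figure D5:**
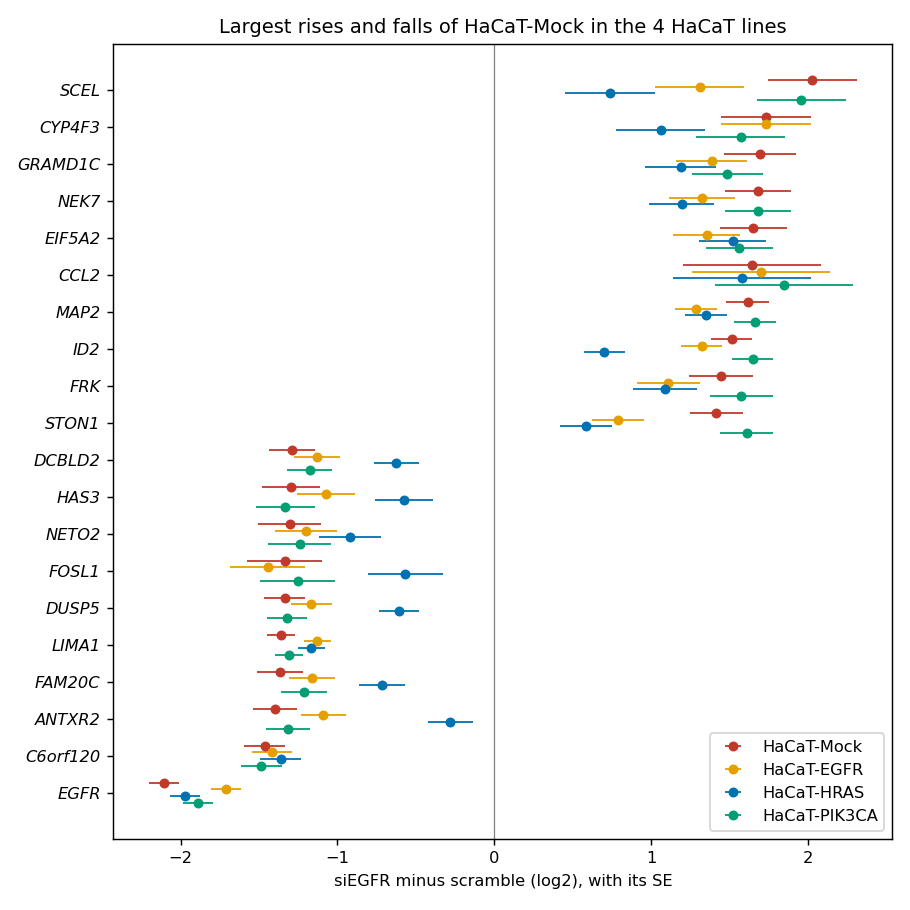
Change after siEGFR against scramble (horizontal axis, log2) in HaCaT-Mock and the 3 other lines for the genes of at least median level with the largest rises and falls in HaCaT-Mock. Points are limma estimates from 3 against 3 arrays and bars their SE. All points of a gene lie on the same side of 0, and the HaCaT-HRAS point of ANTXR2 lies nearest to it, at -0.28.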

How the data were processed

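Total RNA was hybridised to Affymetrix U133 Plus 2.0 arrays. The authors normalised them by frozen robust multiarray analysis (fRMA), and the labels name the tool affy. The deposited values are on a log2 scale, 1 per probe set and array. The study's methods also name a batch correction (pSVA) and removal of outlier arrays for later steps. Of 54675 probe sets, 41097 carried 1 gene symbol, and the brightest over the 89 HaCaT construct arrays stood for its gene. Symbols were updated by gene identifier to RefSeq. limma 3.58.1 in R 4.3.3 was fitted to the 89 arrays with a term per group and batch (J, E, M), with Benjamini-Hochberg adjustment over 19775 genes and no filter on level. The files give no detection calls, and precision is set by the number of arrays. The fit was tested on simulated data. The members and gene lists were chosen with earlier results of these data known. The text names the 10 largest rises and falls of at least median level, the ERBB genes, list members with the lowest adjusted p, and the largest differences from the inhibitors; CDC34, ELOVL4 and ABCA13 and further list members were named after their values were seen. Alternatives were other sets of arrays, batch terms, probe set rules, level filters, quantile normalization, array weights and leaving out each array. Leaving out the 6 arrays that went against their labels was added after seeing the data. No sequence is printed, since the sequence of the siRNA was not used here.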

Additional observations from a re-analysis of the deposited data

Results flagged for a closer look

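The siEGFR response of HaCaT-Mock differed from that of another line for 7 genes by a test of the difference itself. Against HaCaT-EGFR, CXCL10, an interferon-induced chemokine, changed by 0.33 in HaCaT-Mock and by -1.32 in HaCaT-EGFR (difference 1.65, SE 0.274, adjusted p = 0.00167), with HaCaT-Mock arrays at 4.35 to 5.11 throughout and HaCaT-EGFR arrays at 6.35 to 6.78 with scramble. RPTN, a cornified envelope gene, changed by -0.07 in HaCaT-Mock, where it was at 3.36 to 3.68, and by 1.64 in HaCaT-EGFR (difference -1.71, adjusted p = 0.00167).

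Against HaCaT-HRAS, ABCA13 changed by 2.25 in HaCaT-Mock and by 0.30 in HaCaT-HRAS (difference 1.95, adjusted p = 0.000206). ANTXR2 changed by -1.40 and -0.28 (difference -1.12, adjusted p = 0.00714). CD274, which encodes PD-L1, changed by -1.07 and -0.33 (difference -0.74, adjusted p = 0.00714) from scramble levels of 6.64 to 6.91 in HaCaT-Mock and 8.21 or lower in HaCaT-HRAS. CMTM3 changed by -0.31 and 0.16 (difference -0.47, adjusted p = 0.0379) and IER3 by -1.10 and -0.28 (difference -0.82, adjusted p = 0.0379). All 3 siEGFR arrays of HaCaT-Mock lay below the 3 scramble arrays for ANTXR2, CD274 and IER3.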

How the results depend on the processing

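The fall of EGFR kept its direction and its call, between -2.19 and -0.97 (the last as the mean over its probe sets), except in its 4 dimmest probe sets taken on their own, which changed by -0.32 to -0.01 and were not called. The count of 2138 changed genes was 1339 in a fit of the 6 arrays alone, 3468 with the 24 siEGFR and scramble arrays of the 4 lines, 689 without a batch term, 1118 with batch J alone, 3613 with array weights, 1148 with the scramble plus PBS array joined to the scramble group (that array went against its label) and 1514 to 2188 with 1 array left out. Without the 6 arrays that went against their labels, an alternative chosen after seeing the data, it was 2814, of which 2137 were shared. The 98 called genes among those named by rule became 63 without a batch term, 55 with the joined array and 84 to 96 with 1 array left out. Of 135 called genes in the text, 85 were called whichever array was left out and 66 were not with the joined array. FOS, SPRED2 and ALDOC were not called with any of the 6 arrays left out, and FLG, ETV5, TBP, RSAD2, NFKB1 and BNIP3 with 5 of them. The 7 differences between lines were 78 with the 24 arrays, 2 without a batch term, 1 in batch J, 3 with the joined array, 4 among genes with a mean of at least 6, 88 with weights, 61 without the 6 arrays and 3 to 9 with 1 array left out (3 without siEGFR replicate 2). The 2423 differences from the inhibitors were 959 without a batch term, 1097 in batch J, 4111 with weights and 1940 to 2233 with 1 array left out. Against the mean of the other lines the count was 0 under every setting. The causes were not tested.

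Only batch J held 2 arrays per group, and there the difference of the siEGFR arrays did not follow that of the scramble arrays with the same numbers (r = -0.08 across genes), so beyond the batch the replicate numbers did not pair the arrays. A replicate block fitted to the 6 arrays gave 904 genes, of which 852 were shared. Deviations from the group means, batch included, correlated by 0.53, 0.15 and 0.74 for equal numbers, and siEGFR replicate 2 correlated better with scramble replicate 1 (0.55).

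Reversed signs were found for genes that had not passed the test and for other probe sets. With the joined array the change was -0.046 for BTC, -0.049 for NRG2, 0.017 for ETV4, -0.052 for KRT5, -0.50 for KRT4, -0.60 for KRT13, -0.069 for TAP1, 0.022 for NT5E, 0.18 for XDH, -0.54 for TNFAIP2, -0.0090 for MPPED2 and -0.23 for GBP2. It was 0.14 for EREG and -0.066 for NRG2 in batch J alone, -0.016 for BTC and -0.010 for TAP1 with weights, 0.013 for EGF after quantile normalization, -0.052 for NRG2 and -0.035 for TNFAIP2 as means over probe sets, and -0.14 for NRG2 by the study's rule on spread. With 1 array left out it ranged from -0.050 to 0.27 for NRG4, from -0.084 to 0.078 for EGF, from -0.060 to 0.19 for BTC, from -0.018 to 0.14 for TAP1, from -0.14 to 0.0091 for RPTN, from -0.28 to 0.13 for EREG, from -0.39 to 0.25 for KRT1 and from -0.0032 to 0.22 for NRG2. Other probe sets changed by -0.30 for ERBB3, 0.10 and 0.035 for HBEGF, -0.070 and -0.21 for CBL, -0.025 and -0.088 for SOS1, -0.020 for FGFR3, 0.057 for HAS3, 0.020 for DCBLD2, 0.058 for ITGB1, -0.24 and -0.0091 for DST, -0.28 for TYMS, 0.078 for IL1A, -0.21 for IL1RN, 0.0070 for ACACA, 0.056 and 0.14 for TNRC6A and 0.031 for CDC34 among called genes and by -0.039 for ERBB2, -0.17 for ERBB4, 0.020 for EREG, -0.21 for NRG1, -0.017 for BTC, -0.14 and -0.11 for NRG2, -0.063 for KRT4, 0.042 for MKI67 and -0.13 for TNFAIP2 among the rest.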
